A study of Mus musculus with 12 samples.

Results

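The microarrays carried 18 probes for 10 genes of fatty acid uptake and oxidation (Cd36, Fabp3, Fabp4, Lpl, Cpt1a, Cpt1b, Acadm, Hadha, Ppargc1a and Ppard), out of 56605 probes and 27306 gene symbols. The genes were chosen by name, and every probe that the deposited table assigns to one of the 10 symbols was taken. RNA came from C2C12 cells, a myoblast line from C3H mouse muscle that fuses into myotubes when confluent cells are moved to low-serum medium. There were 4 conditions with 3 replicates each: cells transfected with the control siRNA (siControl) and cells transfected with siBach1-2, each taken just before the medium change (day 0) and 2 days after it (day 2). siBach1-2 is an siRNA against Bach1, a transcriptional repressor that binds DNA together with small Maf proteins. All cells, controls included, had been transfected, and the silenced cells had received a single siRNA, so effects of losing Bach1 and other effects of this siRNA cannot be told apart. The arrays asked whether the genes that bring fatty acids into muscle cells and burn them changed with Bach1 silencing, with differentiation, or differently at the 2 days.

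Fatty acids reach muscle cells partly as triglyceride in lipoproteins, from which lipoprotein lipase (Lpl) releases them. Cd36 carries them across the plasma membrane, and the binding proteins Fabp3 (the heart and muscle form) and Fabp4 (the adipocyte and macrophage form) carry them in the cytosol. Carnitine palmitoyltransferase, encoded by Cpt1a (the liver form) and Cpt1b (the muscle form), commits long-chain fatty acids to mitochondria, where Acadm and Hadha catalyse steps of beta-oxidation. The nuclear receptor Ppard and the coactivator Ppargc1a (PGC-1alpha) are known to raise transcription of many of these genes in muscle.

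Values are log2 signals relative to the 75th percentile of the same array, so that 0 is the level of a probe at that percentile. They were compared between conditions for each probe and never between probes. The Bach1 probe read 1.55 to 1.78 in siControl samples and -0.22 to 0.18 in siBach1-2 samples at day 0. At day 2 the ranges were 2.55 to 2.58 and 0.56 to 0.65. Between 26920 and 33313 probes per array were well above background by the scanner's own flag. Replicates 1 and 2 of every condition were on slide 1 and replicate 3 on slide 2, and each condition kept its own column of the slides, so position and condition cannot be told apart. Of 8 muscle markers, 7 exceeded background on every array. The sources used here do not say whether replicates were separate cultures, and p-values then measure only the spread between these samples, which may be technical.

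Upstream sequence was at hand for 7 of the 10 genes (Acadm, Cd36, Cpt1a, Fabp3, Hadha, Ppard and Ppargc1a). The 250 bases before the start site are shown for Ppargc1a, Fabp3 and Cd36, the 3 of these genes whose signals rose with differentiation, from RefSeq on GRCm38.p6. Ppargc1a is at chr5:51567726-51567975 on the minus strand, Fabp3 at chr4:130308488-130308737 on the plus strand and Cd36 at chr5:17835897-17836146 on the minus strand, each written 5′ to 3′ in the direction of transcription. Capitals mark matches on either strand to CANNTG, the E-box bound by myogenic factors, to AGGTCA, the core bound by nuclear receptors such as Ppard, and to TGAGTCA or TGANNNNGC, cores of the elements bound by Bach1 and small Maf proteins.
Ppargc1a: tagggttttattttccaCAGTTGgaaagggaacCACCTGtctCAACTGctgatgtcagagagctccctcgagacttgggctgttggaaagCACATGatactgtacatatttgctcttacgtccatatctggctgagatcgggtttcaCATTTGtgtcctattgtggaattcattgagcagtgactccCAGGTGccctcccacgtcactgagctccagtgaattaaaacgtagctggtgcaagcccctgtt
Fabp3: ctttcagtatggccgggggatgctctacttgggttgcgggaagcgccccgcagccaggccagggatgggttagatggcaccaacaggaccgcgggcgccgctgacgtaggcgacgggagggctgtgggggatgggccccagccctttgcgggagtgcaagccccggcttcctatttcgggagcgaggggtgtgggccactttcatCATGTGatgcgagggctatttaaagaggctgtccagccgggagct
Cd36: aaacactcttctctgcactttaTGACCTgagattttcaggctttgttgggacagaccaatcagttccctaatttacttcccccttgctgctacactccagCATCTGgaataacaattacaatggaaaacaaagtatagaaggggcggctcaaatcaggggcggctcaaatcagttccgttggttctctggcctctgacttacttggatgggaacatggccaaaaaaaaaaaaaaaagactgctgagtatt
The Ppargc1a stretch held 6 E-boxes. At least 1 E-box was in 66.2% of the 32851 promoters of the table and at least 6 were in 0.274%. Fabp3 held 1 E-box, and Cd36 held 1 E-box and 1 AGGTCA, the latter in 14.0% of promoters. AGGTCA was also upstream of Cpt1a and Acadm, and E-boxes upstream of Cpt1a (1) and Ppard (2). TGAGTCA, present in 4.46% of promoters, and a DR1 element, a direct repeat of AGGNCA with 1 base between, present in 0.338%, were in none of the 7 stretches. TGANNNNGC, present in 35.2% of promoters, was found once, upstream of Acadm. A match is a run of letters and not a measured binding site, and the lack of one says only that these letters are not in this window.

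Upon Bach1 silencing at day 2, Lpl and Ppargc1a were higher, Lpl by 1.89-fold to 3.99-fold on 5 of its 6 probes and Ppargc1a by 2.19-fold and 2.35-fold on its 2 probes. The larger of these folds came from dim probes and were smaller with the normexp background correction, as given with each probe. That correction adds an offset of 50 to each signal, which by itself shrinks the folds of dim probes. These 7 probes were the ones called among the 17 member probes tested, where a call means an adjusted p under 0.05 in limma, after Benjamini-Hochberg correction over all tested probes. Of the 29664 probes tested, 12% were called, 5.75% higher and 6.26% lower. Of the 7, 6 were higher by at least 2-fold, as were 1.52% of all tested probes. The median log2 change of the 17 probes was 0.61, against -0.01 over all tested probes. Counted as genes, with the brightest probe of each, 2 of 10 were called, both higher, and the median log2 change was 0.27. Of all 15642 tested genes 6.38% were higher and 7.4% lower, with a median log2 change of -0.03. The other 8 member genes did not pass with the adjustment over all 29664 probes. In a separate fit of 1 probe per gene, adjusted over 15642 genes, Cpt1a passed as well (adjusted p = 0.0374), so that 3 of 10 were called. The share of all genes called in that separate fit is not given here.

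At day 0, silencing called 2 of the 17 member probes, Hadha higher and 1 Lpl probe lower. Of all tested probes 17.1% were called, 8.8% higher and 8.32% lower, so the members' share did not exceed the background. Neither member changed by 2-fold, as 2.79% of all probes did. The median log2 change of the members was 0.12, against 0.09 over all tested probes. The excess of the silencing effect at day 2 over that at day 0, the interaction term of the fit, was called for 3 member probes, all for Lpl and all positive. It was called for 4.59% of all probes, 2.39% in this direction. With the replicate number as a block it was called for 5 member probes, adding 1 for Lpl and 1 for Ppargc1a.

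**Figure D1:**
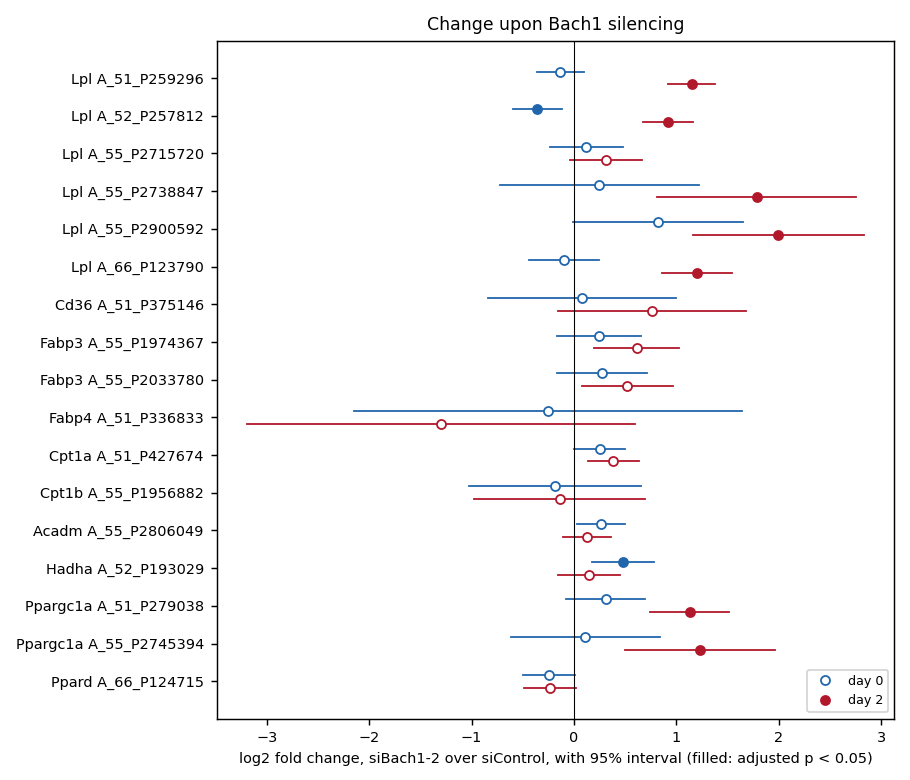
Log2 fold change of siBach1-2 over siControl for the 17 tested probes at day 0 (blue) and day 2 (red), with the 95% interval from the limma fit over 3 arrays per condition. Filled points have an adjusted p under 0.05, which at day 2 are 5 Lpl probes and both Ppargc1a probes.

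Lpl was measured by 6 probes, 3 of them designed on the RefSeq transcript and 3 on other cDNA records. In siControl cells the RefSeq probe A_51_P259296 gave 2.15, 1.95 and 2.03 at day 0 and 1.93, 1.96 and 1.88 at day 2. In siBach1-2 cells it gave 2.01, 1.80 and 1.93 at day 0 and 2.90, 3.07 and 3.26 at day 2. The 3 silenced samples at day 2 thus stood above the other 9, which lay together. The difference at day 2 was 1.15 on the log2 scale (SE 0.10, 2.22-fold, adjusted p = 0.000203), and it was 1.04 on slide 1 and 1.38 on slide 2. At day 0 it was -0.13 (adjusted p = 0.431), with overlapping samples.

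The other RefSeq probes gave the same order of conditions at day 2. A_66_P123790 read -2.21, -2.39 and -2.58 in siControl cells and -1.28, -1.19 and -1.09 in siBach1-2 cells, a log2 difference of 1.20 (SE 0.15, adjusted p = 0.00133), and of 0.71 with a normexp background correction. A_52_P257812 read -0.13, -0.17 and -0.32 against 0.57, 0.77 and 0.80, a difference of 0.92 (SE 0.11, adjusted p = 0.000862). This probe was also the one called lower at day 0, where it read 0.08, -0.25 and -0.06 in siControl cells and -0.54, -0.35 and -0.41 in siBach1-2 cells. That difference of -0.36 had an adjusted p of 0.0452, and it lost the call when either siControl replicate 1 or 3 or any siBach1-2 sample of day 0 was left out, or any siControl sample of day 2, or siBach1-2 replicate 2 or 3 of day 2, with an adjusted p between 0.0506 and 0.16. Neither of the other RefSeq probes for Lpl was called at day 0.

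Of the 3 probes on cDNA records, A_55_P2900592 rose at day 2 from -4.51, -4.16 and -3.82 to -2.37, -2.33 and -1.80, a log2 difference of 2.00 (SE 0.37, adjusted p = 0.0082). With a normexp background correction it was 0.80 and still called (adjusted p = 0.022). A_55_P2738847 rose from -4.38, -4.42 and -4.45, with 1 of 3 siControl arrays well above background, to -2.66, -2.90 and -2.34, a difference of 1.78 (adjusted p = 0.0263). With normexp it was 0.53 and not called (adjusted p = 0.0622). Leaving out any of the 6 day 2 arrays raised that p to between 0.0525 and 0.0857. A_55_P2715720 overlapped between the conditions, at -1.59, -1.43 and -2.01 against -1.24, -1.22 and -1.64, and its difference of 0.31 was not called (adjusted p = 0.24). The rise was thus called on 5 of the 6 probes.

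From day 0 to day 2, none of the 6 Lpl probes was called in siControl cells, with log2 changes from -0.31 to 0.30 and 0 of 6 at an unadjusted p under 0.05 in limma or by the methods' t-test. The probe at -0.31, A_66_P123790, was called lower without siBach1-2 replicate 2 of day 0 (adjusted p = 0.0448) and after quantile normalization (-0.45, adjusted p = 0.0311). The one at 0.30, A_55_P2715720, was called higher without siControl replicate 3 of day 2 (adjusted p = 0.0213), on slide 1 alone (0.0061) and with normexp (0.0185). In siBach1-2 cells all 6 rose from day 0 to day 2, by 0.49 to 1.62. The largest, of A_55_P2738847, was 0.49 with normexp. The rises of A_55_P2715720 and A_55_P2900592 had adjusted p values of 0.0234 and 0.0378. The first was lost without siBach1-2 replicate 1 or 2 of either day (0.0594 to 0.0855), and the second without siBach1-2 replicate 1 or 2 of day 0, any siBach1-2 sample of day 2, siControl replicate 1 of day 0 or siControl replicate 2 of day 2 (0.0508 to 0.146). Neither was called after quantile normalization (0.0524 and 0.0879). The silencing effect at day 2 exceeded that at day 0 by 1.28 for A_51_P259296 (SE 0.15, adjusted p = 0.00462), by 1.28 for A_52_P257812 (adjusted p = 0.00492) and by 1.30 for A_66_P123790 (adjusted p = 0.0135), which was 0.70 with normexp (adjusted p = 0.013). With the replicate block A_55_P2900592 was called as well, both for this difference (1.17, adjusted p = 0.0348, against 0.23 without the block) and higher at day 0 (0.82, adjusted p = 0.0193, against 0.164). For A_55_P2738847 the excess of 1.54 was not called (adjusted p = 0.181), except without siBach1-2 replicate 3 of day 0 (0.033) and with the slide as a block (0.049).

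**Figure D2:**
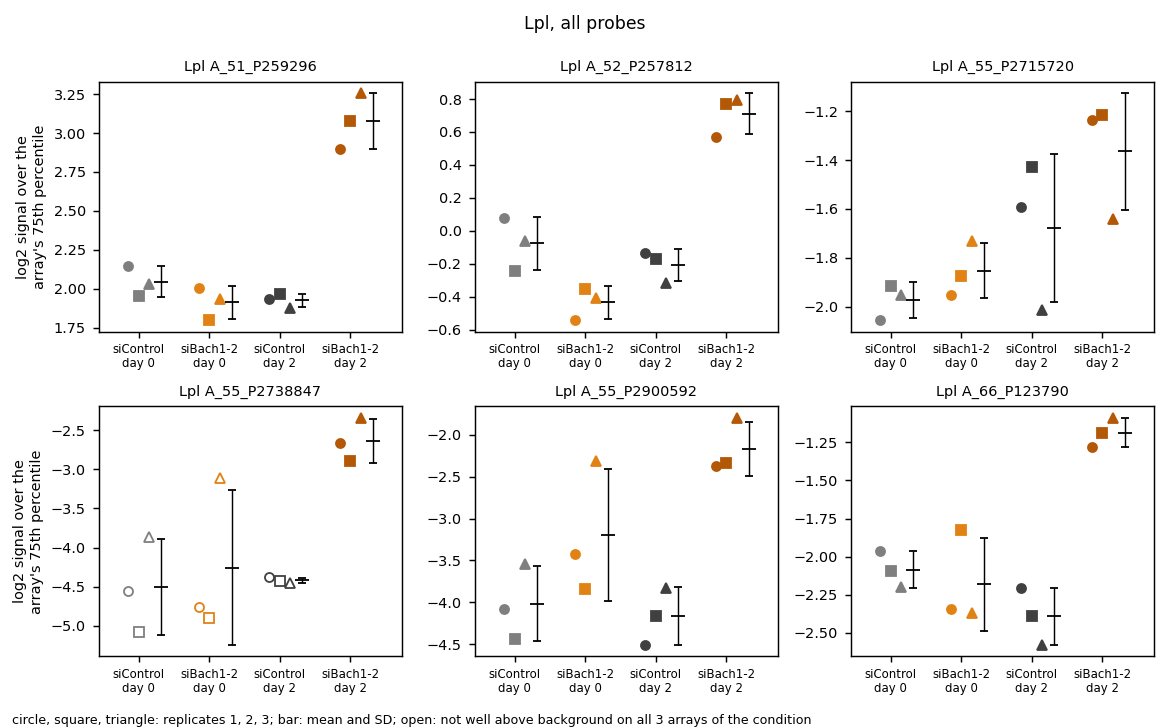
Log2 signal of the 6 Lpl probes in each of the 12 samples, centred on the 75th percentile of its array, with the mean and SD of each condition. In 5 of the 6 panels the 3 siBach1-2 samples of day 2 lie above all siControl samples of day 2, and in the panel of A_55_P2715720 they overlap.

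Other cell types that make Lpl were looked for by their markers. Of 12 adipocyte markers, Adipoq and Cfd were well above background on no array, while Lep, Cebpa and Pparg were on all 12. Plin1 was on all arrays of day 2, Gpd1 on all but 1 of the 12, and Lipe on 5 of 6 at day 2. Counted over the list, 6 of the 12 markers were well above background on no siControl array of day 2. In siBach1-2 cells 5 were on no array of day 2, and at day 0 the counts were 3 in siControl and 5 in siBach1-2 cells. The summed signal of the list, in multiples of the 75th percentile, was 3.30 to 4.35 in siControl cells and 4.54 to 4.79 in siBach1-2 cells at day 2, without overlap. At day 0 it was 5.60 to 6.35 and 5.74 to 7.51. Of the 6 tested adipocyte markers, 0 were called at either day in limma (1 at each day at an unadjusted p under 0.05), with adjusted p values from 0.119 to 0.979. Of 8 macrophage markers, Adgre1 and Tyrobp were above background on no array, while Cd68, Csf1r, Ptprc, Itgam and Fcer1g were on all 12. Their sum overlapped between the conditions at day 2, at 25.4 to 33.7 and 21.1 to 32.4. For 8 endothelial markers the sum did not exceed 0.399 on any array, and Cdh5, Kdr, Tek, Tie1, Emcn and Esam were above background on none. The other 2, of which 1 was Vwf, exceeded background in every day 2 sample of both siControl and siBach1-2 cells. From day 0 to day 2 Vwf was higher by at least 3.36-fold in siControl and 3.33-fold in siBach1-2 cells. Neither of the 2 was called upon silencing at either day in limma. Muscle markers moved with the day 2 comparison: their summed signal was 1009 to 1049 in siControl cells and 640 to 758 in siBach1-2 cells. Myod1, Myog and Actc1, 3 of the 7 tested, were called lower, as were 7.4% of all tested genes. The part of these markers in the Lpl and Ppargc1a differences was not tested, and in these bulk samples a change in the number of cells of one kind cannot be told apart from a change in RNA per cell.

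Ppargc1a, the coactivator known for driving mitochondrial biogenesis and oxidative metabolism in muscle, rose both with differentiation and with silencing. Its probe A_51_P279038 gave -2.56, -2.53 and -3.07 in siControl cells at day 0 and -1.41, -1.27 and -1.51 at day 2. In siBach1-2 cells it gave -2.49, -2.38 and -2.37 at day 0 and -0.45, 0.08 and -0.44 at day 2. The silenced samples were above the control samples at both days without overlap, narrowly at day 0. The difference was 1.13 at day 2 (SE 0.17, 2.19-fold, adjusted p = 0.00326), at 1.16 on slide 1 and 1.07 on slide 2, and 0.31 at day 0, where it was not called (adjusted p = 0.259). From day 0 to day 2 it rose by 1.32 in siControl cells (adjusted p = 9.26e-05) and by 2.14 in siBach1-2 cells (adjusted p = 3.18e-06), the latter by 1.41 with normexp.

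The excess of the day 2 effect over the day 0 effect was 0.82 for this probe (95% interval 0.28 to 1.37), with an adjusted p of 0.0864, and of 0.0307 with the replicate block. The second probe, A_55_P2745394, read -2.77, -2.74 and -2.90 in siControl cells and -1.78, -1.25 and -1.69 in siBach1-2 cells at day 2, a difference of 1.23 (SE 0.33, adjusted p = 0.0363), and of 0.63 with normexp (adjusted p = 0.00303). It was well above background on 2 of 3 arrays of each condition at day 0. Its call at day 2 was lost when any array other than the siBach1-2 samples of day 0 was left out, with an adjusted p between 0.0536 and 0.115. Its rise in siControl cells, by 1.08 (adjusted p = 0.0174), was lost without siControl replicate 3 of day 0 (0.0562) or replicate 2 of day 2 (0.05). Its rise in siBach1-2 cells was 2.20 (adjusted p = 0.000212), and 0.97 with normexp.

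Ppard, the nuclear receptor that senses fatty acids in muscle, was not called in any comparison of the main limma fit. It read 1.88, 1.98 and 2.29 in siControl and 1.83, 1.76 and 1.84 in silenced cells at day 0. At day 2 it read 1.90, 1.71 and 2.02 against 1.60, 1.64 and 1.67. The silenced samples lay below the controls at both days without overlap. The log2 difference was -0.24 at each day, with adjusted p values of 0.184 and 0.215 and 95% intervals of -0.49 to 0.01 and -0.49 to 0.02. From day 0 to day 2 the limma change was -0.18 in siControl cells (adjusted p = 0.222). In siBach1-2 cells it was -0.17 (adjusted p = 0.226), with all day 2 samples below those of day 0, and 2 of 24 alternative settings called this fall. Across all tested probes, 37.3% at day 0 and 32.8% at day 2 did not overlap between siControl and siBach1-2 cells, so a lack of overlap alone was common. Among the members, 6 of 17 probes at day 0 and 12 of 17 at day 2 did not overlap. Those of day 2 read Cd36, Cpt1a, Fabp3, Lpl, Ppard and Ppargc1a, with repeated probes for Fabp3, Lpl and Ppargc1a that are not independent.

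With differentiation Fabp3, Cd36 and Ppargc1a rose and Cpt1a fell in both kinds of cells, and Lpl rose in siBach1-2 cells. From day 0 to day 2, 6 of 17 member probes were called in siControl cells, 5 higher and 1 lower. The background was 53.4% of all tested probes, with 24.6% rising and 28.7% falling. In siBach1-2 cells 12 of 17 member probes were called, 11 higher and 1 lower, against 56.1% of all probes, 23.8% higher and 32.3% lower. Several of these probes read the same gene. With 1 probe per gene, 4 of 10 genes were called in siControl cells, 3 higher and 1 lower. Of all tested genes 27.7% were higher and 30.1% lower. In siBach1-2 cells 5 of 10 genes were called, 4 higher and 1 lower, against 26.7% higher and 33.3% lower.

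Of the members well above background at both days, Fabp3 had the largest rise. Probe A_55_P2033780 of Fabp3 read 0.16, -0.07 and 0.39 at day 0 and 3.56, 3.46 and 3.29 at day 2 in siControl cells. It read 0.31, 0.07 and 0.94 at day 0 and 3.98, 3.94 and 3.96 at day 2 in siBach1-2 cells. No day 2 sample overlapped a day 0 sample, and the rises were 3.27 (9.67-fold, adjusted p = 5.42e-07) and 3.52 (11.5-fold, adjusted p = 3.52e-07).

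At day 2 the silenced samples read above the controls in 3 of 3 samples, without overlap, on both Fabp3 probes. The log2 difference was 0.52 for A_55_P2033780 (95% interval 0.08 to 0.96, adjusted p = 0.121) and 0.61 for A_55_P1974367 (95% interval 0.20 to 1.03, adjusted p = 0.059), and neither passed the test. With the replicate block the second passed (adjusted p = 0.033) and the first did not (0.0769). With normexp both passed (0.0413 and 0.0193), as they did with only the day 2 arrays (0.0373 and 0.0209), and the second also passed after quantile normalization (0.033). Leaving out 1 array also changed the outcome: without siBach1-2 replicate 3 of day 0, which is outside this comparison, the adjusted p was 0.0305 and 0.0182. Without replicate 2 of the same condition that of A_55_P1974367 was 0.0304. At day 0 the Fabp3 samples overlapped, with differences of 0.27 and 0.25.

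Cd36, the fatty acid translocase, appeared with differentiation. Its probe was well above background on 0 of 6 arrays at day 0 and on 6 of 6 at day 2. At day 2 it read -1.89, -1.55 and -2.07 in siControl cells and -1.08, -1.03 and -1.12 in siBach1-2 cells. Since day 0 gives only a bound, the rise was at least 6.70-fold in siControl cells (adjusted p = 2.43e-05) and at least 9.67-fold in siBach1-2 cells (adjusted p = 7.42e-06), where the bound sets the day 2 mean against the dimmest signal well above background on each day 0 array or the probe's own signal, whichever is higher. The bound applies to the scanner's background-subtracted signal. With normexp the fitted log2 rises were 1.42 and 1.69, which are smaller folds than the bounds. The offset of 50 that normexp adds by itself shrinks the folds of dim probes, so these values do not test the bound. The silenced samples were above the controls at day 2 without overlap, by 0.76 (SE 0.41, 95% interval -0.16 to 1.68), which was not called (adjusted p = 0.274). The pooled spread of this probe includes its readings at day 0, below background. With a normexp background correction the difference was 0.44 (adjusted p = 0.0307), and in a fit of the day 2 arrays only it kept its size with an adjusted p of 0.0363.

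**Figure D3:**
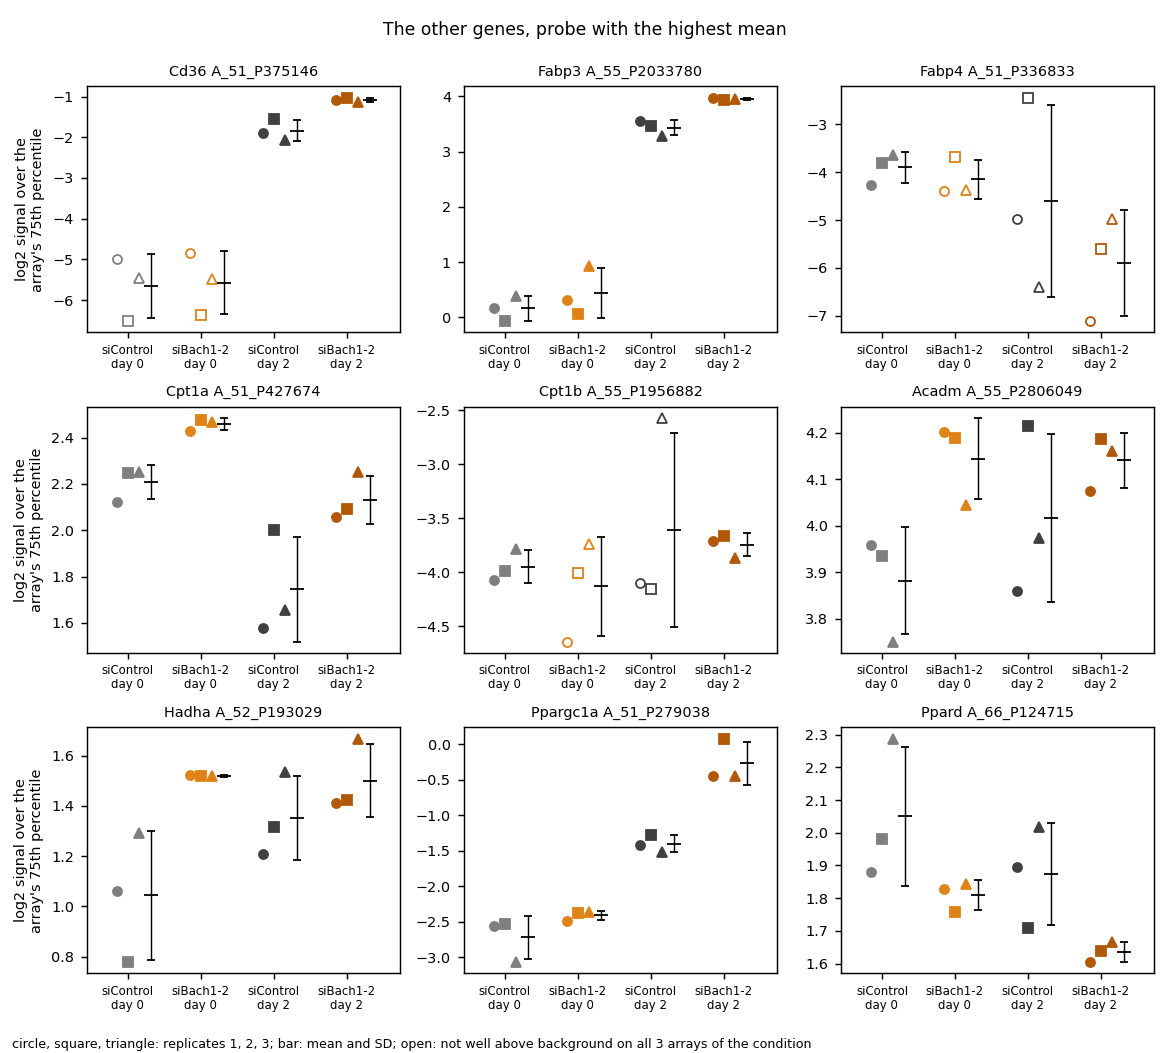
Log2 signal, centred on the 75th percentile of each array, for the brightest probe of each of the other 9 genes in each of the 12 samples, with the mean and SD of each condition. Cd36, Fabp3 and Ppargc1a separate by day, and Cpt1a is lower at day 2. Open points mark conditions in which the probe was not well above background on all 3 arrays, among them those of Fabp4 and Cpt1b with the widest scatter.

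Fabp4 was near background throughout. The tested probe A_51_P336833 exceeded background on 3, 2, 1 and 0 of 3 arrays in siControl day 0, siBach1-2 day 0, siControl day 2 and siBach1-2 day 2. At day 2 the siControl samples read -4.97, -2.44 and -6.40 and the siBach1-2 samples -7.11, -5.61 and -4.97. No comparison was called. In siBach1-2 cells all day 2 samples read below those of day 0, by at least 1.38-fold, with an adjusted p of 0.106. Without siControl replicate 2 of day 2 the adjusted p of the change from day 0 to day 2 was 0.0213 in siBach1-2 cells and 0.0365 in siControl cells. Day 2 readings mostly below background give these falls no exact size, and in siControl cells the fitted change was positive with normexp (0.18, adjusted p = 0.469). The other Fabp4 probe was well above background on 1 array of 12 and was not tested.

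Cpt1a fell with differentiation. Its probe read 2.12, 2.25 and 2.25 at day 0 and 1.58, 2.00 and 1.66 at day 2 in siControl cells, and 2.43, 2.48 and 2.47 against 2.06, 2.09 and 2.25 in siBach1-2 cells. All day 2 samples were below those of day 0 in both kinds of cells. The change was -0.46 in siControl cells (SE 0.11, adjusted p = 0.00529) and -0.33 in siBach1-2 cells (adjusted p = 0.0292). The latter was not called after quantile normalization (-0.18, adjusted p = 0.187) or with normexp (0.0623), and not without any siBach1-2 sample of day 0 or replicate 1 or 2 of day 2 (0.0544 to 0.0948). The silenced cells were above the controls in 3 of 3 samples at both days, by 0.25 (adjusted p = 0.156) and 0.39 (95% interval 0.14 to 0.64, adjusted p = 0.0502). By the methods' t-test the day 0 difference was called, also after Benjamini-Hochberg adjustment. The day 2 difference lay at the threshold: its adjusted p was 0.0264 with the replicate block, 0.0273 after quantile normalization, 0.045 with normexp and 0.00939 without siControl replicate 2 of day 2.

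Cpt1b, the muscle form, was dim and was not called in any comparison over all 12 arrays. It read -4.07, -3.99 and -3.78 in siControl and -4.64, -4.01 and -3.74 in silenced cells at day 0. At day 2 it read -4.10, -4.15 and -2.57 against -3.71, -3.66 and -3.87. One siControl sample of day 2, replicate 3, stood apart from the others. The day 2 difference was -0.14 (95% interval -0.97 to 0.70), at 0.44 on slide 1 and -1.29 on slide 2, and 0.38 without that sample.

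Hadha, the alpha subunit of the mitochondrial trifunctional protein, was the member called higher at day 0. It read 1.06, 0.78 and 1.29 in siControl cells, and all 3 siBach1-2 samples read 1.52. The difference was 0.48 (SE 0.14, 1.39-fold, adjusted p = 0.0385), at 0.60 on slide 1 and 0.22 on slide 2. The call was lost without any siBach1-2 sample or siControl replicate 1 or 2 of day 0, siBach1-2 replicate 1 or 2 of day 2, or siControl replicate 2 of day 2, with an adjusted p between 0.05 and 0.133. At day 2 the samples overlapped, at 1.21, 1.31 and 1.54 against 1.41, 1.42 and 1.67 (difference 0.15, adjusted p = 0.546). From day 0 to day 2 in siControl cells the change of 0.31 had an adjusted p of 0.0811, of 0.0267 with the replicate block and of 0.0229 without siControl replicate 3 of day 0.

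Acadm, the medium-chain acyl-CoA dehydrogenase, was not called in any comparison. It read 3.96, 3.94 and 3.75 in siControl and 4.20, 4.19 and 4.04 in silenced cells at day 0. At day 2 it read 3.86, 4.22 and 3.97 against 4.07, 4.19 and 4.16. The silenced samples were higher without overlap at day 0 only, by 0.26 (95% interval 0.03 to 0.50, adjusted p = 0.12), and the day 2 difference was 0.12 (95% interval -0.11 to 0.36). The change with differentiation was 0.13 in siControl and 0.00 in siBach1-2 cells.

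**Figure D4:**
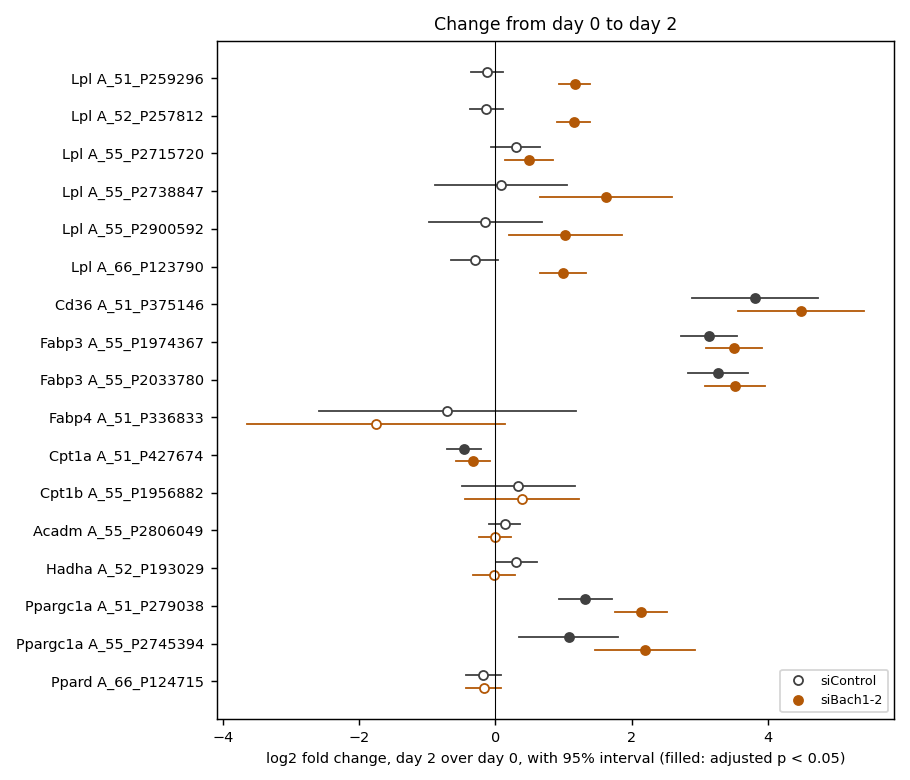
Log2 fold change of day 2 over day 0 for the 17 tested probes in siControl (dark grey) and siBach1-2 (brown) cells, with the 95% interval from the limma fit. Cd36, Fabp3 and Ppargc1a rose in both, all 6 Lpl probes were called in siBach1-2 cells and 0 in siControl cells, and the Cd36 points are fitted values against day 0 signals below background.

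The wider pathway was read from 8 lists with 120 genes, of which 93 had a tested probe. At day 0, 11 of the 93 were called higher and 9 lower upon silencing, and at day 2, 8 were higher and 8 lower. Of all 15642 tested genes, 10.1% were higher and 9.85% lower at day 0, and 6.38% and 7.4% at day 2. The median log2 changes were 0.12 and -0.01, against 0.08 and -0.03 over all tested genes. With the replicate block 20 were higher and 11 lower at day 0. The shares of all tested genes called with that block are not given here. With differentiation, 39 rose and 20 fell in siControl cells, where 27.7% and 30.1% of all tested genes did, and 37 rose and 24 fell in siBach1-2 cells, against 26.7% and 33.3%. The excess of the day 2 silencing effect over that of day 0 was called for 4 genes in the positive and 3 in the negative direction, against 3.08% and 2.74% of all tested genes, and for 5 and 7 with the replicate block. Leaving out 1 array changed these counts. The 20 called at day 0 became 12 without siControl replicate 1 of day 0, and 13 without siControl replicate 2 or siBach1-2 replicate 3 of day 0. The 16 at day 2 became 10 without siControl replicate 3 or siBach1-2 replicate 1 of day 2, and 9 without siBach1-2 replicate 2 of day 2. The 7 of the excess became 3 without siControl replicate 2 of day 0 or siBach1-2 replicate 1 or 2 of day 2. They became 4 without siControl replicate 1 or 3 or siBach1-2 replicate 2 or 3 of day 0, siControl replicate 1 of day 2 or siBach1-2 replicate 3 of day 2.

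Upon silencing, Pdk4, the kinase that shuts off pyruvate oxidation, was the highest list gene at both days, at 1.82 on the log2 scale at day 0 (adjusted p = 0.000396) and 1.91 at day 2 (adjusted p = 0.000736). The lipid droplet protein Plin4 rose by 0.86 and 1.59 (adjusted p = 0.0302 and 0.0027). At day 2 the mitochondrial carrier Ucp3 rose by 0.84 (adjusted p = 0.00343), whereas it had changed by 0.05 at day 0 (adjusted p = 0.839), and its paralog Ucp2 rose by 0.81. The excess at day 2 was called for Ucp2 (0.88, adjusted p = 0.0252), Ucp3 (0.79, adjusted p = 0.0416), Med1 (0.62, adjusted p = 0.0279) and the acyl-CoA synthetase Acsbg1 (1.02, adjusted p = 0.0126). At day 0 the synthetase Acsl6 rose by 0.88, while Acsbg1 fell by 1.10, Prkaa2, a catalytic subunit of AMP-activated kinase, by 0.91 (well above background on 1 of 3 silenced arrays, and a log2 difference of -0.18 with an adjusted p of 0.316 with normexp) and the Mediator subunit Med1 by 0.89. At day 2 the hormone Fgf21 fell by 1.65 (adjusted p = 0.0363), Lmf1, which Lpl needs to fold, by 0.66 and the dehydrogenase Acad10 by 0.59. Acad10 had been higher by 0.84 at day 0 (adjusted p = 0.0046), and its excess of -1.43 was called (adjusted p = 0.0105). That of Lmf1 was -0.66 (adjusted p = 0.0136) and that of the short-chain dehydrogenase Acads -0.66 (adjusted p = 0.0213).

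Several of these calls did not hold when 1 array was left out, and each of those was lost under several different omissions. An array outside a comparison does not enter its log2 difference, only the pooled spread and the adjustment. The rise of Plin4 at day 0 was lost without siControl replicate 1 or 2 or siBach1-2 replicate 2 or 3 of day 0 (adjusted p from 0.0507 to 0.113). The fall of Fgf21 at day 2 was lost without siControl replicate 1 or 2 or any siBach1-2 sample of day 2, or siBach1-2 replicate 2 of day 0 (0.0519 to 0.112). That of Acad10 was lost without any siControl sample of day 0, siBach1-2 replicate 2 of day 0, siControl replicate 3 of day 2 or siBach1-2 replicate 1 or 2 of day 2 (0.0502 to 0.118). The excess of Ucp2 was lost without siControl or siBach1-2 replicate 2 or 3 of day 0, siControl replicate 1 of day 2 or any siBach1-2 sample of day 2 (0.0558 to 0.064). That of Acads was lost without siControl replicate 1 or 2 of day 0 or siBach1-2 replicate 1 or 2 of day 2 (0.053 to 0.0598). The excesses of Ucp3 and Med1 were each lost without any array other than siBach1-2 replicate 1 of day 0 and siControl replicate 3 of day 2 (0.0657 to 0.0982 and 0.0525 to 0.0777). The calls of Pdk4 at both days, of Plin4, Ucp2, Ucp3 and Lmf1 at day 2 and of Acsbg1, Acsl6, Prkaa2 and Med1 at day 0 held with each array left out in turn.

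By list, upon silencing at day 2 the other genes known as PPAR targets had 3 of 6 tested members higher, Pdk4, Ucp2 and Ucp3, and 1 lower, Fgf21. Over all tested genes these shares were 6.38% and 7.4%, with which the counts of every list here are to be read. The carnitine shuttle and malonyl-CoA list had 3 of 9 lower, Crat (-0.47), Cpt2 (-0.37) and the carnitine carrier Slc25a20 (-0.37), and 0 higher. Mitochondrial beta-oxidation had 2 of 21 higher, Acad11 (0.71) and Acaa2 (0.54), and 2 lower, Acad10 and Eci2 (-0.29). Lipoprotein lipolysis and lipid droplets had Plin4 higher and Lmf1 lower of 13, acyl-CoA synthetases had Acsl1 (0.60) higher of 7, and transcription regulators had Nrip1 (0.34) higher and Nrf1 (-0.27) lower of 19. None of the 11 peroxisomal beta-oxidation genes and none of the 7 genes of fatty acid transport and binding was called in limma (3 and 2 at an unadjusted p under 0.05). At day 0 each list had between 0 and 3 members called in each direction. Acaa2, Acad11, Acsl1, Cpt2, Crat, Eci2, Nrf1, Nrip1 and Slc25a20 were named after their values were seen. With each array left out in turn the calls of Crat, Acad11 and Acsl1 held. That of Acaa2 was lost without siControl replicate 1 or 3 or siBach1-2 replicate 2 of day 2, and that of Cpt2 without siControl replicate 2 or 3 or siBach1-2 replicate 1 or 2 of day 2 (highest adjusted p 0.0593 and 0.0854). Those of Eci2, Nrf1, Nrip1 and Slc25a20 were lost under 10, 11, 9 and 10 of the 12 omissions, with an adjusted p up to 0.142.

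With differentiation, Fgf21 rose by 6.21 in siControl and 4.95 in siBach1-2 cells. In siControl cells Pdk2, a kinase of the same family as Pdk4, rose by 3.04. The lipoprotein receptor Vldlr rose by at least 3.50-fold, a bound because it was above background on 0 of 3 siControl arrays at day 0. Its fitted log2 rise with normexp, 1.08, was below that bound. The offset of that correction shrinks the folds of dim probes, so this value does not test the bound. In siBach1-2 cells Ucp3 rose by 3.20 (2.71 with normexp). Prkaa2, above background on 1 of 3 siBach1-2 arrays at day 0, has no exact rise there, and its fitted log2 value was 3.31, or 1.68 with normexp. The largest falls in siControl cells were those of Acsbg1 by 2.13, the binding protein Fabp5 by 1.90 and the synthetase Acsl5 by 1.45. In siBach1-2 cells Fabp5 fell by 2.12, Acsl5 by 1.43 and Angptl4, a secreted inhibitor of Lpl, by 1.31. Angptl4 also fell by 1.44 in siControl cells, and its differences upon silencing, 0.12 and 0.25, were not called. Of the peroxisomal genes, 8 of 11 rose and 1 fell in both kinds of cells, and of the mitochondrial beta-oxidation genes 8 of 21 rose and 1 fell in siControl cells while 4 rose and 5 fell in siBach1-2 cells. Over all tested genes the shares were 27.7% rising and 30.1% falling in siControl cells and 26.7% and 33.3% in siBach1-2 cells. Whether the counts of the 2 kinds of cells differ was not tested.

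**Figure D5:**
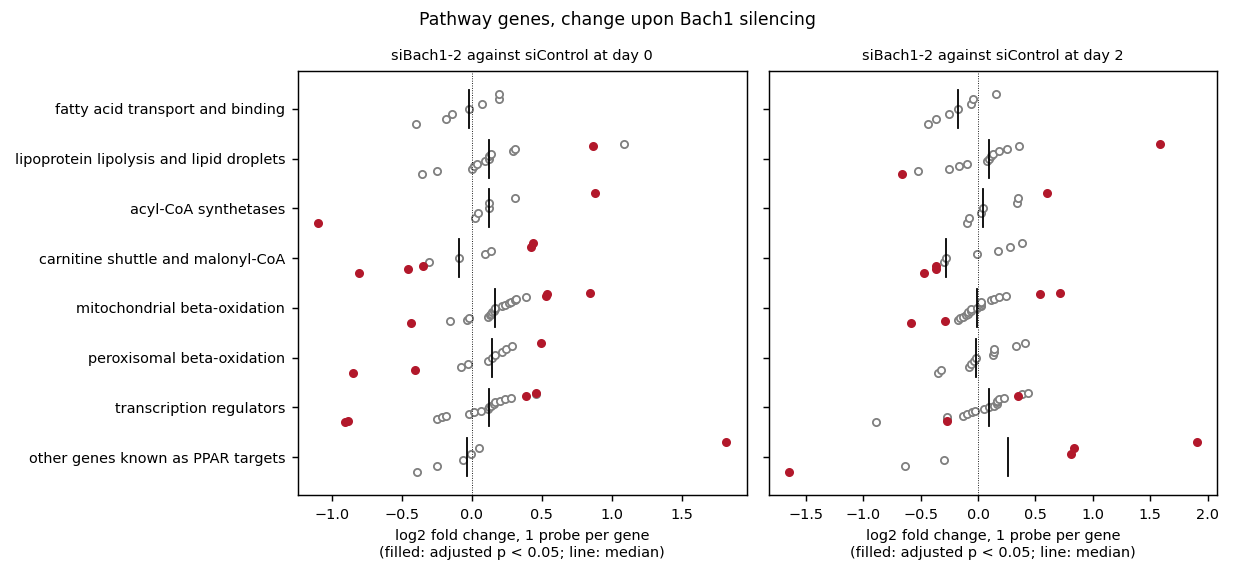
Log2 fold change of siBach1-2 over siControl for the 93 tested pathway genes, 1 probe per gene, at day 0 (left) and day 2 (right), by list, with the list medians as lines. Filled points have an adjusted p under 0.05, 20 at day 0 and 16 at day 2.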

How the data were processed

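Cyanine 3-labelled RNA of 12 C2C12 samples was read on 1-colour Agilent mouse arrays of 62976 spots. The authors deposited the scanner output, in which the processed signal is a background-subtracted intensity. File headers name Agilent Feature Extraction 10.7.3.1 and the submitters' processing notes version 9.1. The authors also deposited normalized log2 values, made in GeneSpring, relative to the array's 75th percentile and the probe's median, from which the values computed here differed by at most 0.254 after the same centring. Columns of comparisons were not used.

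Control spots and the 76 to 110 outlier spots per array were removed. No spot was saturated. Repeated spots were averaged as log2 and the array's 75th percentile (signal 325.5 to 534.4) was subtracted. Probes well above background on 3 of 3 arrays of at least 1 condition were tested, 29664 of 56605, in 1 fit of the 4 conditions in limma 3.58.1 (R 4.3.3) with 5 contrasts, Benjamini-Hochberg adjustment over all tested probes, and a call at an adjusted p under 0.05. Figures were drawn with matplotlib 3.10.9. On simulated data of this size for the day 2 silencing comparison, 70% of 100 probes changed by 1 on the log2 scale and 90% of 100 changed by 2 were called, with 9 false calls. The number of arrays limits the precision.

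The deviations of arrays with the same replicate number correlated for all 18 pairs (0.142 to 0.595, limit 0.1). The numbers come from the labels. The main fit, which gave the values printed unless another is named, did not use this pairing. The replicate number was a block in an alternative fit only. With that block 9 of 17 member probes were called for silencing at day 2, against 7 in the main fit. It also raised the pathway counts for differentiation, from 59 to 69 of 93 genes in siControl cells and from 61 to 70 in siBach1-2 cells. The shares of all tested probes called with the block are not given here, so its added calls cannot be set against a background. Arrays with the same number were thus not treated as pairs in the main fit. They also share slides. For member probes the blocked value is given where it changes a call. The values of single list genes are those of the main fit, and whether the block changes their calls is not given.

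The genes and lists were chosen with earlier results of these data known. All probes of the 10 genes were named, and of the lists the 3 genes with the largest rise and fall among those called per comparison, with 1 probe per gene, the one with the highest mean. Marker lists held 12 adipocyte, 8 endothelial, 8 macrophage and 8 muscle genes. RefSeq promoters (GRCm38.p6) were searched on both strands over 250 bases. Headers of the arrays name an older build, so array coordinates are not given. Protein sequences were not used here.

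Alternatives were a slide block or replicate block, fits restricted to the compared arrays, quantile normalization, normexp (offset of 50), GeneSpring's deposited values, dropping the filter on dim probes or requiring all 12 arrays, limma-trend with a robust prior, the methods' t-test, a limit of 2-fold, 1 or all probes per gene, each array left out in turn and, chosen after seeing the data, the 8 arrays of slide 1 alone.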

Additional observations from a re-analysis of the deposited data

Results flagged for a closer look

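For 3 Lpl probes the silencing effect differed between the 2 days by the interaction term of the limma fit, the day 2 effect being the larger by 1.28 for A_51_P259296 (adjusted p = 0.00462), 1.28 for A_52_P257812 (adjusted p = 0.00492) and 1.30 for A_66_P123790 (adjusted p = 0.0135). In each case 3 of 3 silenced samples were above the controls at day 2. On slide 1 alone, with 2 arrays per condition, the adjusted p values were 0.0598, 0.0681 and 0.0892, and without a filter on dim probes that of A_66_P123790 was 0.0826. The 3 probes read the same transcript and are not independent.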

How the results depend on the processing

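No called change of a member probe turned its direction under any alternative run. For silencing at day 0, the count of member probes called (2) became 0 without a filter on dim probes (2 at an unadjusted p under 0.05 in limma), 0 at a limit of 2-fold, 0 with only the arrays of the comparison (4 at an unadjusted p), 1 on slide 1, 1 with 1 probe per gene, 4 by the methods' t-test and 1 by it after Benjamini-Hochberg adjustment. The probe left after that adjustment was that of Cpt1a, and neither Hadha nor Lpl was called there. For silencing at day 2 it went from 7 of 17 probes to 3 of 10 genes with 1 probe per gene (Lpl, Ppargc1a and Cpt1a, adjusted over 15642 genes rather than 29664 probes). For differentiation in siBach1-2 cells it went from 12 of 17 probes to 5 of 10 genes. For the difference between the 2 days it went from 3 to 5 with the replicate block, 6 with the slide block, 1 with 1 probe per gene and 0 on slide 1 (9 at an unadjusted p in limma). Leaving out 1 array at a time gave 0 to 1 at day 0, 5 to 9 at day 2, 6 to 7 and 9 to 12 for differentiation in siControl and siBach1-2 cells, and 3 to 4 for the difference.

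Of the pathway genes, with all probes of each gene 33 probes were called at day 0, 26 at day 2, 101 and 102 for differentiation in siControl and siBach1-2 cells. Without a filter 12 were called at day 0, 6 at day 2 and 0 for the difference between days (17 at an unadjusted p in limma). The replicate block gave 31 at day 0 and 12 for the difference, and slide 1 gave 2 for the difference. Leaving out 1 array at a time gave 12 to 22, 9 to 20, 55 to 61, 55 to 63 and 3 to 7 in the same order of comparisons as for the members. The replicate block changed no call of a member probe other than those named in the report. Signals of Cd36 at day 0, of Fabp4 and of Cpt1b near background limit what can be said of them, and the sample number limits every value. For the listed changes of counts, the cause was not tested where fewer probes or arrays were not the difference itself.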
